A study of Mus musculus with 24 samples.

Results

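Slc30a10, metallothioneins and other proteins that carry manganese, zinc, copper and iron were followed in the livers of mice fed 4 diets. The members were 8 genes of metal transport and storage, namely Slc30a10, Slc30a1, Slc39a14, Slc39a8, Slc39a4, Mt1, Mt2 and Cp, found through the gene symbols of the array annotation. All 8 were measured, by 22 probe sets, among 18193 genes that had a probe set with a single symbol. The livers came from 24 female NMR-1 mice, 8 weeks old at the start, which had been raised on pellets. For 2 weeks, 6 mice stayed on mouse pellets (Pellet), 6 received the vegetables, fruit and yogurt given to captive chimpanzees (Chimpanzee), 6 received cooked cafeteria food (HumanCafe) and 6 received fast food only (FastFood). RNA was processed in 2 batches, each with 3 mice per diet, and hybridised to 1 Affymetrix array per mouse. The study asked whether foods typical of humans alter liver expression relative to a chimpanzee diet, so the 12 cafeteria and fast food mice were also pooled as the human diets. Intake and metal content of the diets were not analysed here, whole diets were exchanged, and no label ties a mouse to its litter.

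Metal ions are needed as enzyme cofactors but are toxic in excess, and the liver both stores them and sends manganese and copper into bile. Exporters of the Slc30 family move zinc, and in the case of Slc30a10 manganese, out of the cytosol, while importers of the Slc39 family bring zinc, manganese and iron in. Metallothioneins are small cysteine-rich proteins that bind zinc and copper. Their genes, and Slc30a1, are switched on by the zinc-sensing factor Mtf1, which binds metal response elements in promoters.

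Promoter sequences are shown for Mt1 and Mt2, whose probe sets varied together between mice. Those of Slc30a1, the other known Mtf1 target, and of Slc30a10, after which the set is named, are shown too. Each is the RefSeq sequence on build GRCm38.p6 from 250 bases before to 50 bases after the gene start, on the plus strand. Capitals mark matches to the core of the metal response element, searched as TGCACNC and TGCGCNC on both strands, and matches may overlap.
Mt1, chr8:94178839-94179138: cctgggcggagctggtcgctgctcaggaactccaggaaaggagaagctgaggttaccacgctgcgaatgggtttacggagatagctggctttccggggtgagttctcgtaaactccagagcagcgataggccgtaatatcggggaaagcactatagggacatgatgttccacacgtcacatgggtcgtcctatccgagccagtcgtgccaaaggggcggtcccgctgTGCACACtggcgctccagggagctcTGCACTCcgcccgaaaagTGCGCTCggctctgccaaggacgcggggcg
Mt2, chr8:94172368-94172667: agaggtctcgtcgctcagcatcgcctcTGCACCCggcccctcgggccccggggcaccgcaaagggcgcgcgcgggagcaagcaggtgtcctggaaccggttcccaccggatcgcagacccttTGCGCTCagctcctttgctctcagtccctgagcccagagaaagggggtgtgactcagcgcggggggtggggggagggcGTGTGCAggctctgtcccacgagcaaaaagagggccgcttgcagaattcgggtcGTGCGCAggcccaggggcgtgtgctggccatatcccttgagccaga
Slc30a1, chr1:191906531-191906830: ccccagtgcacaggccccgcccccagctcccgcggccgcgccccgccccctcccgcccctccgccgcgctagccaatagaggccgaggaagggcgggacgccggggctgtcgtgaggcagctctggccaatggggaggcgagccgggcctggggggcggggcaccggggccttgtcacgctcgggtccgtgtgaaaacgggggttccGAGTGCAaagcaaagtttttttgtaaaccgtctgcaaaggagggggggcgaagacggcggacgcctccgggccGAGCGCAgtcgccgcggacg
Slc30a10, chr1:185454598-185454897: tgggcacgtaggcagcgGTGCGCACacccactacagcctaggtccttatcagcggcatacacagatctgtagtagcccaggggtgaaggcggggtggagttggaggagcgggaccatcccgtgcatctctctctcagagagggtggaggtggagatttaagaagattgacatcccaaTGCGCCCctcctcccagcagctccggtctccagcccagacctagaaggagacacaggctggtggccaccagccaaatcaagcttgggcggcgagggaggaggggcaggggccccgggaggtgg
The Mt2 promoter held 4 matches, a number reached by 0.517% of 32851 promoters of the same length. The Mt1 promoter held 3 matches, as did that of Slc30a10, where an overlapping pair covers the same bases on opposite strands, and 1.97% of promoters held as many. The Slc30a1 promoter held 2 matches, both on the opposite strand, which 7.11% of promoters reached. At least 1 match was present in 25.7% of all promoters, so a match is a description of the letters and not of a bound site. Of the other members with an entry, both Cp promoters held 0 matches, and 1 of the Slc39a8 promoters held 1. Slc39a14 and Slc39a4 complete the set.

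The samples read as liver. The 8 measured hepatocyte markers averaged between 11.1 and 11.7 on the log2 scale in every mouse, while 4 of 5 measured small intestine genes lay on average below the median of all probe sets. The arrays differed in intensity range. The 90th percentile of an array was 6.42 to 6.62 in batch 1 and 5.67 to 6.35 in batch 2, and the 4 lowest arrays, all of batch 2, were 1 cafeteria, 1 fast food and 2 chimpanzee-diet arrays. Between mice of the same diet and batch, this percentile went with Slc39a8 (Pearson's r = 0.95, Spearman's rho = 0.92, adjusted p = 0.00064 and 0.00056, permutation test over 24 mice and 8 genes) and with Slc30a1 (r = 0.83, rho = 0.79, adjusted p = 0.00064 and 0.00056, permutation test). It went less closely with Slc39a4 (r = 0.68, rho = 0.69, adjusted p = 0.0169 and 0.0257, permutation test) and Slc30a10 (r = 0.58, rho = 0.52, adjusted p = 0.0283 and 0.0457, permutation test). For Mt1, Mt2, Slc39a14 and Cp, r ran from 0.17 to 0.41 with adjusted p of 0.423 to 0.625 (permutation test). Without the 2 arrays farthest from the median, r was 0.89 for Slc39a8, 0.69 for Slc30a1, 0.81 for Slc39a4 and 0.35 for Slc30a10. Within batches 1 and 2, r was 0.95 and 0.95 for Slc39a8, 0.75 and 0.90 for Slc30a1, 0.68 and 0.64 for Slc30a10, and 0.05 and 0.75 for Slc39a4. The distance between the 3' and 5' control probe sets of beta-actin, a measure of RNA integrity, averaged 0.75 in pellet, 1.08 in chimpanzee, 0.91 in cafeteria and 0.80 in fast food arrays. Where a member's call between 2 diets changes when either quantity enters the fit, this is given with the gene. Changed counts of calls are given at the end.

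Across the 4 diets, 3 of 8 members passed limma's moderated F test at an adjusted p of 0.05, where 9% of 13384 genes did. They were Slc30a10, Slc39a4 and Mt2. Each pellet mouse lay above all mice on the other diets, within both batches, for Slc30a10 and Slc39a4, an order shown by 0.859% of all genes. The members were selected on function with their diet levels in these same arrays known, so these counts and the p-values that follow describe the arrays and are not independent evidence. For Slc30a10 no p is given for a difference between diets, and its place among the genes that passed is a description. In whole liver, fewer cells of a type and less RNA per cell cannot be told apart.

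**Figure D1:**
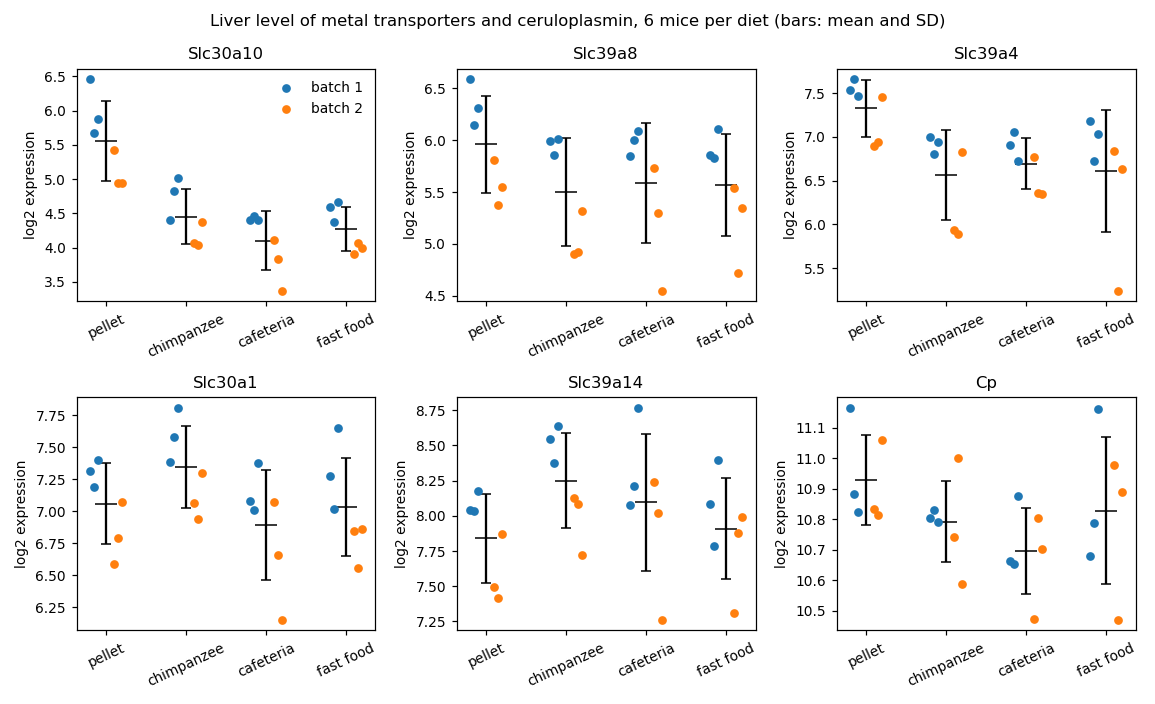
Log2 expression (vertical axes) of 5 metal transporters and ceruloplasmin by diet (horizontal axes), with 1 point per mouse coloured by batch and bars at mean ± SD of each diet. In the Slc30a10 panel the pellet mice sit at 4.94 to 6.46, above the other mice of their batch, and batch 2 lies below batch 1 in most transporter panels.

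Slc30a10, a manganese exporter of the liver and intestine whose loss in humans causes manganese overload, was more than 2-fold lower in mice taken off pellets. In pellet mice its level was 6.46, 5.68 and 5.87 in batch 1 and 5.42, 4.94 and 4.95 in batch 2. In chimpanzee-diet mice it was 4.41, 4.83 and 5.01 in batch 1 and 4.07, 4.04 and 4.38 in batch 2. In cafeteria mice it was 4.40, 4.47 and 4.41 in batch 1 and 4.11, 3.83 and 3.37 in batch 2. All pellet mice were thus above every mouse of their batch on another diet, and only 1 chimpanzee-diet mouse, of batch 1, exceeded the lowest pellet mouse, of batch 2. In fast food mice the level was 4.59, 4.38 and 4.66 in batch 1 and 3.91 to 4.06 in batch 2. The order of the means was pellet (5.55 ± 0.58, SD, n = 6), chimpanzee (4.45 ± 0.39), fast food (4.27 ± 0.32) and cafeteria (4.10 ± 0.43), and the last 3 overlapped.

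Relative to pellets, Slc30a10 was 2.58-fold lower on the human diets, a log2 difference of -1.37 ± 0.12 (SE, 12 against 6 mice), and 2.14-fold lower on the chimpanzee diet (-1.10 ± 0.14, 6 against 6 mice). The size was similar within batches, at -1.52 ± 0.14 and -1.22 ± 0.18 for the human diets and -1.25 ± 0.18 and -0.94 ± 0.19 for the chimpanzee diet in batches 1 and 2. In batch 2 alone, Slc30a10 was not among the genes that passed across diets or between chimpanzee diet and pellets. The human diets differed from the chimpanzee diet by -0.27 ± 0.10, with a 95% interval of -0.49 to -0.05. With the 90th percentile in the fit this difference was -0.33, and Slc30a10 was then among the genes that passed. Its second probe set was dim, above the median of all probe sets on 9 of 24 arrays, and showed -1.08 ± 0.16 for human and -0.91 ± 0.17 for chimpanzee diets against pellets. There, pellet mice read 3.33 to 5.01 and cafeteria mice 2.88 to 3.07, so the lower values lie at the floor of the array and understate a change. The genes whose levels followed Slc30a10 most closely over the 24 mice, after removal of batch means, were Septin9, a cytoskeletal GTPase (r = 0.93), Mcu, the pore of the mitochondrial calcium uniporter (0.92), Lrrc59 (0.90), Ethe1, a mitochondrial sulfur dioxygenase (0.89), and Eepd1 (0.89), among 12584 genes compared. Diet means were kept in these correlations, so a high r largely reflects the higher level of Slc30a10 on pellets. That all 5 genes had their highest mean in pellet mice follows from this choice and is not a separate result. Ethe1, for example, averaged 8.83 ± 0.32 there and 7.02 to 7.06 on the other diets.

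Slc30a1, the plasma membrane zinc exporter, had its highest level on the chimpanzee diet. It ranged from 6.94 to 7.81 (median 7.34) in chimpanzee-diet mice, from 6.59 to 7.40 (median 7.13) in pellet mice, from 6.15 to 7.38 (median 7.04) in cafeteria mice and from 6.55 to 7.65 (median 6.94) in fast food mice. All 4 ranges overlapped. The human diets differed from the chimpanzee diet by -0.38 ± 0.12 (adjusted p = 0.122, limma) and from pellets by -0.10 ± 0.12 (adjusted p = 0.871). With the 90th percentile in the fit, the difference from the chimpanzee diet was -0.48 with an adjusted p of 0.00164, and the range over all alternatives was 0.00164 to 0.929. The chimpanzee diet was 0.29 ± 0.13 above pellets (adjusted p = 0.194), and 0.42 above with that percentile in the fit (adjusted p = 0.0014). The dimmer probe set gave -0.15 ± 0.07 for human against chimpanzee diets.

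Among the importers, Slc39a4 was the member that passed in both comparisons with pellets. Slc39a4 takes up zinc from food in the intestine, and its loss in humans causes the zinc deficiency acrodermatitis enteropathica. Its level was 7.54, 7.66 and 7.46 in pellet mice of batch 1 and 6.90, 6.94 and 7.46 in those of batch 2. On the chimpanzee diet it was 6.99, 6.81 and 6.94 in batch 1 and 5.94, 5.89 and 6.83 in batch 2. The mice on pellets were the highest of each batch. On the cafeteria diet it was 6.91, 7.06 and 6.73, then 6.77, 6.36 and 6.34. On fast food it was 7.18, 6.72 and 7.03, then 6.84, 5.24 and 6.64, where the low value of 5.24 came from an array with one of the 4 lowest 90th percentiles. Slc39a4 fell by 0.68 ± 0.17 on the human diets (1.60-fold, adjusted p = 0.0226) and by 0.76 ± 0.20 on the chimpanzee diet (1.70-fold, adjusted p = 0.0146). Both values passed in batch 1 alone, at -0.62 (adjusted p = 0.0107) and -0.64 (0.00668). In batch 2 alone they were -0.74 (0.804) and -0.88 (0.517). With the beta-actin distance in the fit they were -0.63 (adjusted p = 0.0809) and -0.51 (0.579), and the human diet call was lost without pellet batch 1 replicate 1 (0.0501), pellet batch 1 replicate 2 (0.0538) or pellet batch 2 replicate 3 (0.0773). The call across the 4 diets (adjusted p = 0.0337) was lost without any of the 6 pellet mice or of chimpanzee batch 1 replicate 2 and batch 2 replicates 1 and 2. A single probe set reads this gene.

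Slc39a8, which brings zinc and manganese into cells and reclaims manganese from bile, was also highest on pellets but did not pass in the main analysis. It ranged from 5.37 to 6.59 (median 5.98) in pellet, from 4.90 to 6.01 (median 5.58) in chimpanzee, from 4.55 to 6.09 (median 5.79) in cafeteria and from 4.71 to 6.11 (median 5.68) in fast food mice. The groups overlapped across batches, since batch 2 was lower on every diet. The differences from pellets were -0.39 ± 0.14 for the human diets (adjusted p = 0.147) and -0.46 ± 0.15 for the chimpanzee diet (adjusted p = 0.0546). Its second probe set gave -0.38 ± 0.10 and -0.39 ± 0.11, and with every probe set tested on its own Slc39a8 passed across diets and in both comparisons with pellets. The chimpanzee diet difference also passed with the replicate block (adjusted p = 0.0482), and at adjusted p of 0.0176 to 0.0474 without chimpanzee batch 2 replicate 3, fast food batch 2 replicate 1 or 2, cafeteria batch 2 replicate 1 or 3, or pellet batch 1 replicate 2. With the 90th percentile, which Slc39a8 followed closely, in the fit, the differences were -0.33 (adjusted p = 0.00114) and -0.28 (0.00488), and adjusted p ranged from 0.00114 to 0.99977 and from 0.00488 to 0.671 over all alternatives.

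Slc39a14, which imports manganese, zinc and iron not bound to transferrin into hepatocytes, did not pass in any comparison. It ranged from 7.42 to 8.18 (median 7.95) in pellet, from 7.72 to 8.63 (median 8.25) in chimpanzee, from 7.26 to 8.77 (median 8.14) in cafeteria and from 7.31 to 8.40 (median 7.94) in fast food mice, with all groups overlapping. The chimpanzee diet was 0.41 ± 0.15 above pellets (adjusted p = 0.099, limma). This difference was 0.49 with the 90th percentile in the fit (adjusted p = 0.0204) and 0.24 with the beta-actin distance. The other 3 probe sets of Slc39a14 gave 0.09 ± 0.12, -0.10 ± 0.15 and -0.03 ± 0.18. Slc39a14 is also a gene of the acute phase response, and 2 of 14 other genes listed for that response (14.3%) passed between these diets, near the 10.4% of all genes and in opposite directions, Il1r1 higher by 1.16 (adjusted p = 0.00197) and Orm2 with a difference of -0.50 (adjusted p = 0.0155).

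Cp, the copper-carrying ferroxidase that hepatocytes secrete, had a small spread within each diet, with an SD of 0.13 to 0.24. It ranged from 10.81 to 11.17 in pellet, around 10.79 ± 0.13 (SD) in chimpanzee, from 10.47 to 10.88 in cafeteria and from 10.47 to 11.16 in fast food mice. The largest of its differences, human diets against pellets, was -0.17 ± 0.09 (adjusted p = 0.464, 95% interval -0.36 to 0.03). After cyclic loess normalization it was -0.21 (adjusted p = 0.0322), and Cp then also passed across diets. Of its 8 probe sets, 2 were below the median of all probe sets on every array. Another, above it on 11 of 24 arrays, read 0.92 ± 0.24 higher on the chimpanzee diet than on pellets, against -0.42 to 0.00 for the 5 bright probe sets, so the probe sets of Cp disagree. With every probe set tested on its own, Cp passed between these diets.

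**Figure D2:**
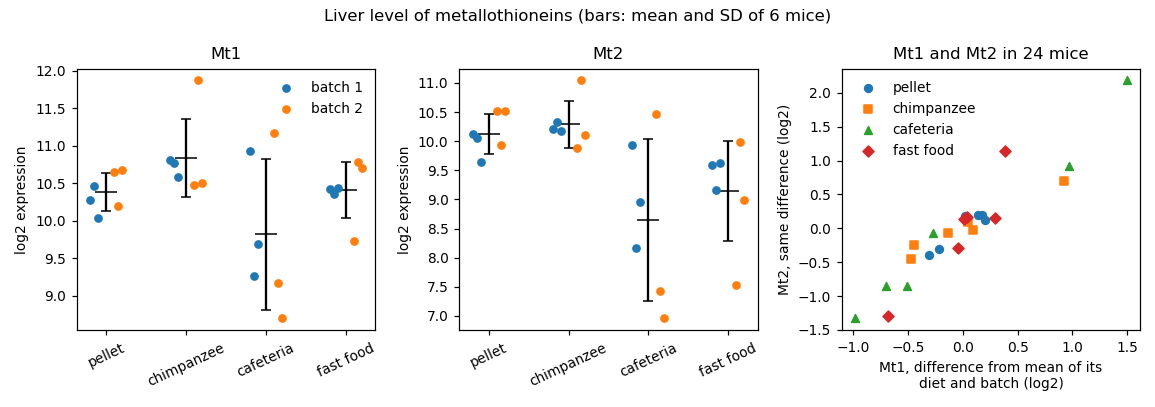
Left and middle panels give log2 expression of Mt1 and Mt2 by diet, with 1 point per mouse coloured by batch and bars at mean ± SD of each diet. The right panel sets each mouse's Mt1 against its Mt2 after subtraction of the mean of its diet and batch, and the points follow a rising line (r = 0.94, 24 mice).

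Mt2 varied more between mice on the human diets than on the other diets. It was 10.12, 10.05 and 9.63 in pellet mice of batch 1 and 10.51, 9.93 and 10.51 in batch 2. On the chimpanzee diet it was 10.21, 10.32 and 10.17, then 9.88, 11.04 and 10.10. These 12 mice span 9.63 to 11.04. On the cafeteria diet Mt2 was 9.93, 8.16 and 8.95 in batch 1 and 10.47, 7.43 and 6.96 in batch 2. On fast food it was 9.59, 9.17 and 9.62, then 7.53, 9.98 and 8.99. Thus 9 of 12 mice on the human diets, 4 on cafeteria food and 5 on fast food, lay below every mouse on pellets or the chimpanzee diet, while the other 3 lay within their range. The SD was 1.39 on cafeteria food and 0.86 on fast food, against 0.34 on pellets and 0.40 on the chimpanzee diet.

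Mt2 passed across the 4 diets (adjusted p = 0.0411, moderated F). No pairwise comparison passed. The human diets differed from the chimpanzee diet by -1.39 ± 0.43 (2.62-fold, adjusted p = 0.114), and differed from pellets by -1.23 ± 0.43 (2.34-fold, adjusted p = 0.128). The chimpanzee diet differed from pellets by 0.16 ± 0.45 (adjusted p = 0.893, limma), or by -0.46 with the beta-actin distance in the fit. Human minus chimpanzee diet was -0.998 ± 0.29 in batch 1 and -1.78 ± 0.75 in batch 2. The call across diets was lost when any of 17 of 24 mice was left out, among them all 6 on the chimpanzee diet, and in each batch alone. Leaving out cafeteria batch 2 replicate 1, the cafeteria mouse with the highest Mt2, gave -1.56 against the chimpanzee diet (adjusted p = 0.046) and -1.40 against pellets (0.0391). Against the chimpanzee diet the difference was -1.50 with the 90th percentile in the fit (adjusted p = 0.0455) and -0.99 with the beta-actin distance (0.83), which also ended the call across diets.

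Mt1 differed less than Mt2 in the comparisons with the human diets, and had an SD of 1.01 on cafeteria food but 0.37 on fast food, against 0.26 on pellets and 0.53 on the chimpanzee diet. On cafeteria food it was 10.93, 9.26 and 9.69 in batch 1 and 11.17, 9.17 and 8.70 in batch 2, so that 4 of 6 mice lay below every mouse on pellets (10.04 to 10.68) or the chimpanzee diet (10.47 to 11.87). Fast food mice lay at 9.72 to 10.79, with 1 below those mice. The human diets differed from the chimpanzee diet by -0.72 ± 0.33 (adjusted p = 0.314) and from pellets by -0.27 ± 0.31 (adjusted p = 0.844). The probe set used is of a type whose probes can match related transcripts, so signal from other metallothioneins cannot be separated. The other Mt1 probe set was dim, averaging 3.60. It gave -0.18 ± 0.19 for human against chimpanzee diets and 0.20 ± 0.18 for human diets against pellets, the latter of opposite sign.

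From mouse to mouse the probe sets of Mt1 and Mt2 moved together. That of Mt1 may also read related transcripts, and the part of shared signal in the correlation was not tested. After subtraction of diet and batch means, r was 0.94 and rho 0.93 over 24 mice (adjusted p = 0.00224 and 0.00392 over 28 pairs of members, two-sided permutation test). Without the 2 mice farthest from the median of Mt1, r was 0.89. Within batches 1 and 2 it was 0.94 (adjusted p = 0.236, permutation test) and 0.95 (adjusted p = 0.023, permutation test). Without the 2 mice of each batch farthest from its Mt1 median, r was 0.61 in batch 1 and 0.93 in batch 2. With the 90th percentile removed r was 0.94. Of the 28 pairs this was the 1 pair that passed. The next, Slc30a10 with Slc39a8 (r = 0.63, rho = 0.62), had adjusted p of 0.072 and 0.0955 (permutation test), and both followed the 90th percentile. The 3 human-diet mice of highest Mt2 included both cafeteria mice of highest Mt1. The closest genes over all mice were sought after removal of batch means, with diet means kept. Genes closest to Mt1 were Lbp, which binds bacterial lipopolysaccharide (r = 0.74), Strn4 (0.72), Pcsk6 (0.69), Nup54 (0.68) and Sh2b1 (0.68). Those closest to Mt2 were Gucd1 (0.76), the autophagy kinase Ulk1 (0.75), the adhesion receptor Ceacam1 (0.73), Ankrd13a (0.72) and Ap1b1 (0.72).

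Metallothioneins also respond to glucocorticoids and to the acute phase response, and lists of both were counted. Of 14 acute phase genes, 3 (21.4%, against 1.49% of all genes) fell on the human diets against the chimpanzee diet, namely Lcn2 by 1.28 (adjusted p = 0.0186), Il1r1 by 0.91 (0.0425) and Orm2 by 0.50 (0.00771). The averaged level of the 14 genes was 8.00 to 8.62 in chimpanzee, 8.03 to 8.58 in pellet, 7.71 to 8.16 in cafeteria and 7.77 to 8.03 in fast food mice. Against pellets, 4 (28.6%, against 4.98% of all genes) fell on the human diets. Of 10 glucocorticoid targets, 2 (20%, against 1.49% of all genes) passed between human and chimpanzee diets. On the human diets 1 rose and 1, Fkbp5, fell by 0.74 (adjusted p = 0.0105, limma). In the comparison with pellets, 2 of 10 (20%, against 4.98% of all genes) rose on the human diets, Pck1 by 0.79 (adjusted p = 0.00145, limma) and Per1 by 0.73 (0.00112). Between chimpanzee diet and pellets 5 of 10 (50%, against 10.4% of all genes) passed, all higher on the chimpanzee diet. The averaged level of these targets was 6.26 on pellets and 6.49 to 6.60 on the other diets. Their part in the metallothionein levels was not tested.

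**Figure D3:**
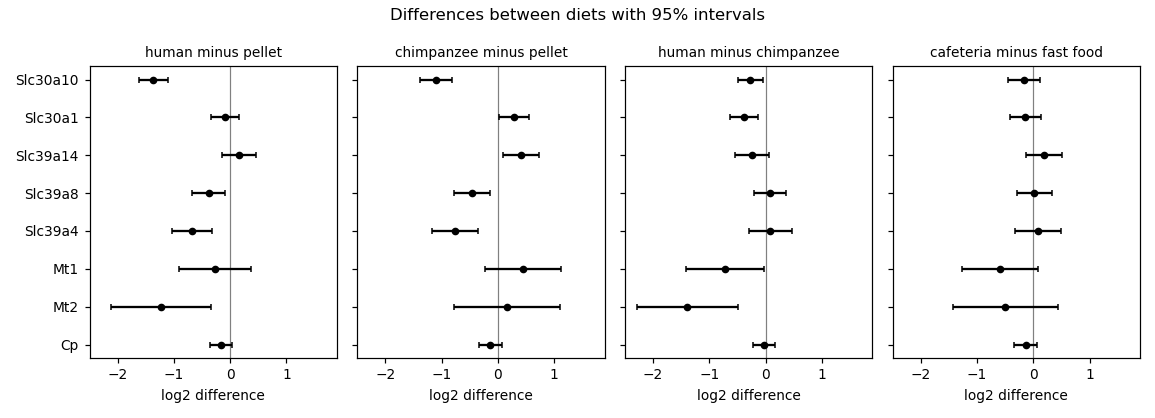
Log2 differences (horizontal axes) of the 8 members in 4 comparisons, with 95% intervals. Slc30a10, Slc39a4 and Slc39a8 lie wholly below 0 in both comparisons with pellets, although Slc39a8 did not pass after adjustment, and the intervals of Mt1 and Mt2 are the widest.

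Read by comparison, 2 of 8 members passed between human and pellet diets, Slc30a10 and Slc39a4, both lower, where 4.98% of genes passed, and the median member difference was -0.33 against -0.01 over all genes. The same 2 passed between chimpanzee and pellet diets, both lower, where 10.4% of genes passed, and the median member difference was 0.01. Both comparisons use the same 6 pellet mice. Between human and chimpanzee diets 0 of 8 passed in limma, where 1.49% of genes passed, with 4 at an unadjusted p under 0.05, and the median member difference was -0.26. The methods' unmoderated linear model called 1 member there, Slc30a1, at an unadjusted p under 0.01. That procedure takes the smallest p over a gene's probe sets, and its threshold is not limma's adjusted p of 0.05. The share of all genes it called is not given here, so its count cannot be set beside that of limma. Cafeteria and fast food differed for 0 members, also at an unadjusted p under 0.05, where 0.00747% of genes passed. This holds for the probe set that represents each gene. A dimmer probe set of Slc39a14 was 0.45 ± 0.18 higher on cafeteria food than on fast food, with a 95% interval of 0.07 to 0.83. Among the representing probe sets, the widest interval between cafeteria and fast food was that of Mt2, -0.50 with a 95% interval of -1.43 to 0.44.

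In the comparison of chimpanzee diet and pellets, cell type markers were counted too. The hepatocyte, sinusoidal endothelial and stellate lists each had 1 of 8 genes pass (12.5%, against 10.4% of all genes). Of 4 cholangiocyte, 4 leukocyte, 7 pancreatic acinar and 1 small intestine genes tested, 0 passed. The small intestine gene did pass across the 4 diets and between human and chimpanzee diets, where it was 0.84 higher on the human diets. Of 10 Kupffer cell and macrophage markers, 5 (50%, against 10.4% of all genes, of which 995 of 1387 were lower) passed, all lower on the chimpanzee diet, with a median difference of -0.68. Their averaged level was 4.62 to 5.82 in chimpanzee-diet and 5.40 to 6.19 in pellet mice. Between human diets and pellets 0 of these 10 markers passed (against 4.98% of all genes), with a median difference of -0.31. Between human and chimpanzee diets 0 of 10 passed (against 1.49% of all genes), with a median difference of 0.28. The part of these markers in the members' levels was not tested.

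Of 59 other listed genes of zinc, copper, iron and manganese handling, 52 were tested. Across the 4 diets 5 passed (9.62%), close to the 9% of all genes. Of 6 other zinc exporters, 1 passed across the 4 diets (16.7%, against 9% of all genes), Slc30a6, which moves zinc into the secretory pathway. Slc30a6 was also the 1 that passed between chimpanzee diet and pellets (16.7%, against 10.4% of all genes). The same held between human and chimpanzee diets (16.7%, against 1.49% of all genes). Its level was lowest on the chimpanzee diet, at 4.69 to 5.88 (median 5.53), against 5.69 to 6.54 on pellets (median 6.04), and fell by 0.69 ± 0.16 from pellets to the chimpanzee diet (adjusted p = 0.0051). Of 10 other importers, 1 passed between these diets (10%, against 10.4% of all genes), Slc39a11, which differed by -0.28 ± 0.07 (adjusted p = 0.0157, limma). The zinc sensor Mtf1 (adjusted p = 0.648 across diets) and Mt3 (0.468) did not pass.

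**Figure D4:**
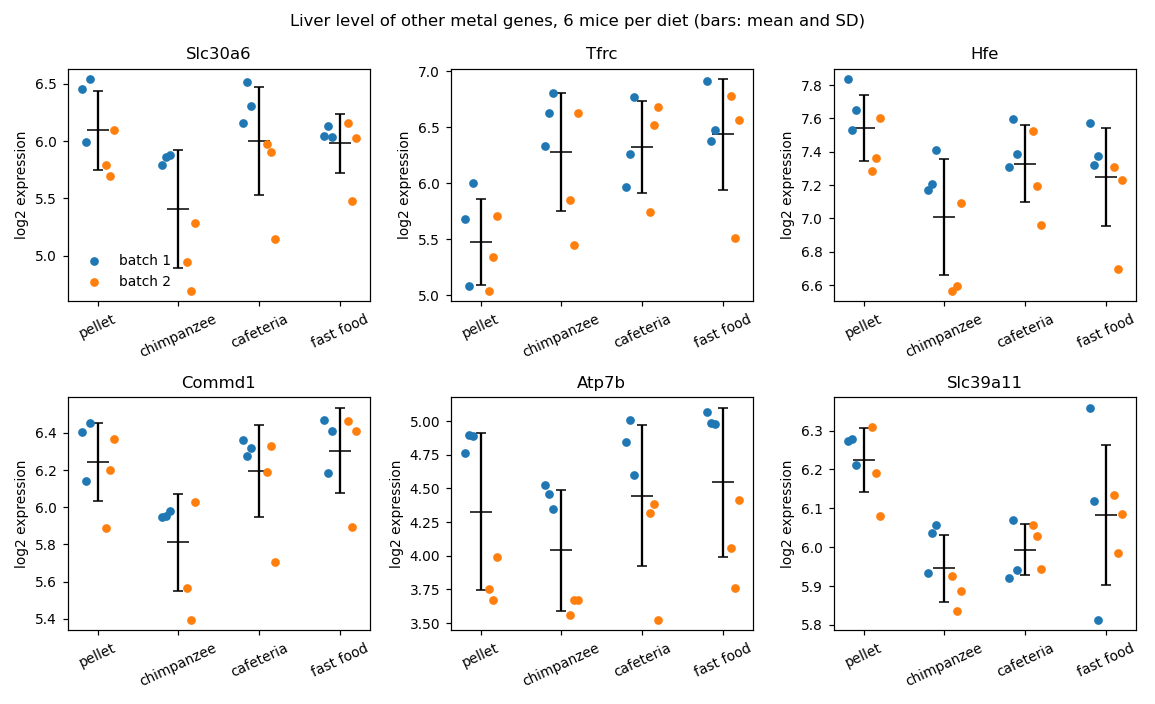
Log2 expression (vertical axes) of 6 other metal genes by diet, with 1 point per mouse coloured by batch and bars at mean ± SD of each diet. Tfrc is lowest on pellets, while Slc30a6 and Hfe have their lowest mean on the chimpanzee diet.

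Of 20 iron genes tested, 3 passed between human diets and pellets (15%, against 4.98% of all genes). Between chimpanzee diet and pellets 3 passed (15%, against 10.4% of all genes). Between human and chimpanzee diets 0 passed in limma, against 1.49% of all genes, and 5 were at an unadjusted p under 0.05. Tfrc, the transferrin receptor, averaged 5.48 ± 0.38 (SD) on pellets, and ranged from 5.45 to 6.80 on the chimpanzee diet (median 6.48), from 5.75 to 6.77 on cafeteria food (median 6.39) and from 5.52 to 6.91 on fast food (median 6.52). Pellet mice held the lowest values, with overlap. Tfrc rose by 0.91 ± 0.19 on the human diets (adjusted p = 0.00614) and by 0.81 ± 0.23 on the chimpanzee diet (adjusted p = 0.0262) relative to pellets. Hamp, which encodes the iron hormone hepcidin, rose by 0.57 ± 0.16 on the human diets relative to pellets (adjusted p = 0.038), although its probe set may also read a close paralog. Slc25a37, a mitochondrial iron importer, rose by 0.39 ± 0.11 (adjusted p = 0.0472). These were the 3 of 52 genes (5.77%) that passed between human diets and pellets, near the 4.98% of all genes. Between chimpanzee diet and pellets 7 passed (13.5%, against 10.4% of all genes), Tfrc higher and 6 lower, among them Hfe, the iron-sensing partner of transferrin receptors (-0.54 ± 0.12, adjusted p = 0.00422), Ireb2, an iron regulatory protein (-0.87 ± 0.23, adjusted p = 0.0141), and Tmem165, a Golgi protein linked to manganese (-0.73 ± 0.19, adjusted p = 0.0136).

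Of 52 other metal genes 4 passed between human and chimpanzee diets (7.69%, against 1.49% of all genes), 3 of them among 11 copper genes tested, all higher on the human diets. Atp7b, the pump that loads copper onto ceruloplasmin and exports it into bile, rose by 0.46 ± 0.11 (adjusted p = 0.0487), the copper chaperone Atox1 by 0.27 ± 0.07 (0.0487), Commd1, needed for biliary copper release, by 0.44 ± 0.11 (0.0459), and Slc30a6 by 0.58 ± 0.14 (0.0387). Cp itself differed by -0.03 ± 0.09 (adjusted p = 0.934). The 4 adjusted p lie near the threshold, and the count was 0 to 6 when single mice were left out and fell below 4 for 16 of 24 mice. With the beta-actin distance in the fit, Tfrc across diets and between human diets and pellets was the 1 call left among the other metal genes, and 0 of the 4 copper and zinc calls between human and chimpanzee diets remained, as with the replicate block.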

How the data were processed

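Liver RNA of each of 24 mice was hybridised to its own Affymetrix mouse array. The deposited values are log2 expression per probe set, computed by the authors with the rma function of affy (version not given in the sources used here), which sets all arrays to 1 distribution of probe intensities, so a shift of all genes cannot be seen. The deposited probe set values still differed in range between arrays, with 90th percentiles from 5.67 to 6.62, and the reason was not tested. Depth has no meaning for arrays, and the number of mice limits the precision. No column of another series was present. Probe sets were named through the platform annotation, where 34945 of 45101 had 1 gene symbol, 932 several and 9160 none. Probe sets above the overall median of 3.1472 on at least 6 of 24 arrays were kept (21920), and each gene was represented by the probe set of highest mean, giving 13384 genes. Of 22 member probe sets 20 passed, and those of Cp below the median on every array did not.

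Differences were fitted with limma 3.58.1 in R 4.3.3, with batch as covariate. Human diets were compared with chimpanzee diet or pellets in 18 mice, and the F test and other pairs used all 24. P-values are two-sided and Benjamini-Hochberg adjusted over all genes tested, with a threshold of 0.05. Values are ± SE for differences and ± SD for means. Correlations between mice used 100000 permutations within diet and batch (Python 3.11.15, numpy 2.4.6, scipy 1.17.1). Scripts were tested on simulated data. Nothing states more than 1 mouse per array, so replicates are taken as mice. The members and gene lists were chosen with earlier results of these data known. Named were all members, the 5 genes of highest r with Slc30a10, Mt1 and Mt2 (without predicted genes and clone names), up to 4 genes per metal list and up to 3 of the acute phase and glucocorticoid lists by smallest F test p. Hamp and Slc25a37 were named after their values were seen, as were the copper and zinc genes that complete a count. Alternatives were another normalization, filter, probe set rule, batch handling, array covariates and weights, a replicate block, the methods' procedure and omission of each mouse. Brain arrays were not analysed here.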

Additional observations from a re-analysis of the deposited data

Results flagged for a closer look

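In 76 groups of 6 mice (19 genes in 4 diets), 6 single mice stood far from the others of their diet by Dixon's criterion, which chance meets in about 1 of 20 groups. Among the members these were Mt1 in chimpanzee batch 2 replicate 2, at 11.87 with the nearest mouse at 10.81, and Slc39a4 in fast food batch 2 replicate 2, at 5.24 with the nearest at 6.64. Both arrays are among the 4 of lowest 90th percentile. Among other metal genes, Slc30a6 was 5.47 in the same fast food mouse (nearest 6.03). Commd1 was 5.71 (nearest 6.19) and Ireb2 4.64 (nearest 6.10) in cafeteria batch 2 replicate 3, the array of lowest 90th percentile. Hamp was 10.30 in chimpanzee batch 2 replicate 3 (nearest 11.38). The part of the array range in these values was not tested.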

How the results depend on the processing

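No difference of a member that passed changed sign under any alternative tried. Slc30a10 against pellets ranged from -1.52 to -1.22 on the human diets and from -1.25 to -0.94 on the chimpanzee diet. In the main analysis the members passing were 3 across diets, 0 for human against chimpanzee diets, 2 for human diets against pellets, 2 for chimpanzee diet against pellets and 0 for cafeteria against fast food, and other metal genes 5, 4, 3, 7 and 0. The share of all genes called under each alternative is not given here. A changed count is therefore not shown to be particular to the members or the other metal genes. In that order of comparisons, counts that moved by over 1.5 times were as follows, and except where the setting itself leaves fewer mice the cause was not tested. Cyclic loess gave 7, 2, 4 and 5 members and 13 and 7 other genes (across diets, human against pellets). Array weights gave 6, 2, 4 and 4 members and 17, 10 and 13 other genes (across diets, human and pellets against chimpanzee). The 90th percentile as covariate gave 5, 3 and 5 members (across diets, human and pellets against chimpanzee) and 15, 7 and 7 other genes in the first 3 comparisons. The beta-actin distance gave 1 member across diets and in each comparison with pellets, and 1, 0, 1 and 0 other genes. Without batch in the fit 1 member in each comparison that had any and 0, 0, 1 and 1 other genes passed. Batch 2 alone gave 0, 1 and 0 members (across diets and against pellets) and 0 other genes, and batch 1 alone 1 other gene for the human diets in each comparison. Without a filter 1 member, Slc30a10, passed across diets and 1 other gene for the human diets in each comparison. With every probe set tested, 4 members passed for chimpanzee diet against pellets, 8 other genes across diets and 2 for human against chimpanzee diets. Without the 4 arrays of lowest 90th percentile 10 other genes passed across diets and 5 for human diets against pellets. The methods' procedure, called at an unadjusted p under 0.01, gave 1 member for each comparison with the chimpanzee diet, and 11, 7, 5, 3 and 1 other genes. Leaving out single mice gave 1 to 6, 0 to 1, 1 to 4 and 2 to 4 members and 1 to 11, 0 to 6, 1 to 4 and 6 to 8 other genes, with 0 throughout for cafeteria against fast food. Across diets Slc39a4 kept its call for 15 of 24 omitted mice and Mt2 for 7. The correlation of Mt1 and Mt2 was 0.94 in batch 1 alone (adjusted p = 0.236, permutation test).

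The labels name nothing that same-numbered mice share beyond the number. The median correlation of their deviations was 0.01 (-0.63 to 0.41) over 36 pairs within batches. Over 72 pairs of other numbers it was -0.02 (-0.55 to 0.63). These values cannot tell whether same-numbered mice were littermates. With the replicate block, 2, 0, 2, 3 and 0 members passed, and 0 other metal genes for human against chimpanzee diets.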
